A study of Homo sapiens with 22 samples.

Results

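The genes described here are 8 transcriptional regulators of lymphoid and myeloid blood cells, SPI1, CEBPA, PAX5, EBF1, BCL11B, GATA3, TCF7 and FOXP3, taken by name from the 20033 protein-coding genes of GENCODE in hg38, of which 19894 were tested. For each gene the window was its body with 20 kb on either side. They had been put together as master regulators thought to be silent in the cells used, but RNA levels were not measured, and 4 of the 8 windows were significantly denser than the genome mean, so they are called the lymphoid and myeloid regulator genes below. The cells were K562, a human leukemia line of erythroid character, electroporated with a donor plasmid, Barcoded-PBase-SRT-Puro, that carries a piggyBac transposon with a puromycin resistance gene, and with a helper plasmid that supplies the transposase. The helper was hyPBase in 10 libraries and hyPBase-centrip in 10, without a fused transcription factor named in the labels for either, and how hyPBase-centrip differs from hyPBase is not given in the sources used here. Cells of both groups were selected in puromycin, transfections were combined in sets before plating, and insertions were read from poly(A) RNA made by the transposon (self-reporting transcripts), with 2 further libraries left out because their labels name different helpers. An insertion that a cell did not transcribe, or that did not give resistance, could therefore not be seen.

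SPI1 (PU.1) and CEBPA are the factors that direct progenitors to the myeloid lineages, and SPI1 also acts in B cells. EBF1 and PAX5 establish and hold B-cell identity, while BCL11B, GATA3 and TCF7 act in early T-cell commitment and FOXP3 defines regulatory T cells. Cells of the erythroid lineage are known for GATA1 and TAL1 instead, and GATA1 and SPI1 are known to oppose each other. The piggyBac transposase inserts at the tetranucleotide TTAA and without a fused factor is known to favour open chromatin and enhancers, so insertions per TTAA site compare regions that hold different numbers of sites.

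On chromosomes 1 to 22, X and Y, every insertion of the 20 libraries lay on a TTAA. Libraries held 1509672 to 3596762 insertions, or 0.0785 to 0.187 per TTAA site of those chromosomes. Over the 20 libraries pooled, the genome mean was 2.71 insertions per TTAA site, and every ratio to the genome below is to that mean, library by library where single libraries are given. Genes lay above that mean as a rule, since the median protein-coding window held 1.49 times the genome mean. At the genome mean, the SPI1 window would hold 10.2 insertions in the shallowest library and 24.3 in the deepest, and the EBF1 window 250.0 and 597. By the insertions observed, single-library values of CEBPA and BCL11B carry the most counting error (medians of 27.5 and 30.0 per library). SPI1 and FOXP3 follow (39.5 and 46.0). The label of the cells could be compared only with insertion density: all 9 windows of erythroid markers fixed for K562 were denser than the genome mean, from 1.90-fold at EPOR, the erythropoietin receptor, to 12.6-fold at HBG1, a fetal globin. Over all windows 65.3% were denser, as were 7 of 8 markers of other blood lineages, so this count does not identify the cells. The median ratio was 6.15 for the erythroid markers and 1.91 for those of other lineages. The globin genes HBE1, HBG1 and HBG2 among the 9 are neighbors whose windows share insertions, and 6.15 is the value of HBE1.

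The TTAA site with the most insertions in each window is shown because a single site carried up to 20.7% of a window's insertions. The sequences are the plus strand of hg38 with 13 bases on either side of the site, and the capitals mark the TTAA.
SPI1, chr11:47393978-47393981, in an intron of the lncRNA SLC39A13-AS1: ttgcaatatcagcTTAAaaacaaaacacaa
CEBPA, chr19:33293378-33293381, intergenic: aatgagtctatttTTAAaacactgccgcac
PAX5, chr9:36996370-36996373, in intron 5 of PAX5: aggtgcagagagaTTAAgtaactcgctaca
EBF1, chr5:159094935-159094938, in intron 4 of EBF1: ccataactcaaccTTAAtgtatactgcttg
BCL11B, chr14:99170002-99170005, in an untranslated part of BCL11B near its 3′ end: ccgtgttggttttTTAAacacaaaacagaa
GATA3, chr10:8082919-8082922, intergenic: atgaaaggctcttTTAAgaatgaaacttca
TCF7, chr5:134100718-134100721, intergenic: ctgtttcactcctTTAAaaagccctggcca
FOXP3, chrX:49235917-49235920, in intron 1 of CCDC22: cctcccaaatcctTTAAccatgatatttgg

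These sites held 150 insertions at SPI1, 174 at FOXP3, 122 at GATA3, 87 at EBF1, 77 at TCF7, 60 at CEBPA, 46 at PAX5 and 12 at BCL11B over the 20 libraries. The sites at SPI1, PAX5, EBF1, GATA3, TCF7 and FOXP3 were hit in all 20 libraries, the one at CEBPA in 19, and the one at BCL11B in 9. At BCL11B a second site held 12 insertions as well, so no single position stood out there.

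The first question was which of the 8 windows were cold, meaning an insertion density of 0.5 times the reference or less with an adjusted p-value below 0.05 in edgeR's quasi-likelihood test. Only BCL11B was cold against the genome mean (1 of 8, where 13.7% of all windows tested were). Together with EBF1 and PAX5, 3 of 8 were lower than the genome mean (29.5% of all windows were). SPI1, FOXP3, TCF7 and CEBPA, 4 of 8, were denser (65.3% of all windows were), and GATA3 passed neither way. The median ratio to the genome mean of the 8 was 1.28, against 1.49 over all windows.

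The order from sparsest to densest was BCL11B, EBF1, PAX5, GATA3, CEBPA, TCF7, FOXP3 and SPI1. BCL11B lay below EBF1 in all 20 libraries, EBF1 below PAX5 in 19, PAX5 below GATA3 in 19, GATA3 below CEBPA in 17 and TCF7 below FOXP3 in 18. CEBPA and TCF7 were in this order in only 8 libraries, with a mean log2 difference of 0.04 against an SD of 0.23 between libraries, and FOXP3 and SPI1 in 11, with 0.06 against 0.29. Those neighbours did not differ beyond their spread. BCL11B stood at percentile 11.0 of all protein-coding windows, EBF1 at 16.8, PAX5 at 23.3, GATA3 at 34.4, CEBPA at 50.9, TCF7 at 52.1, FOXP3 at 65.1 and SPI1 at 66.7.

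**Figure D1:**
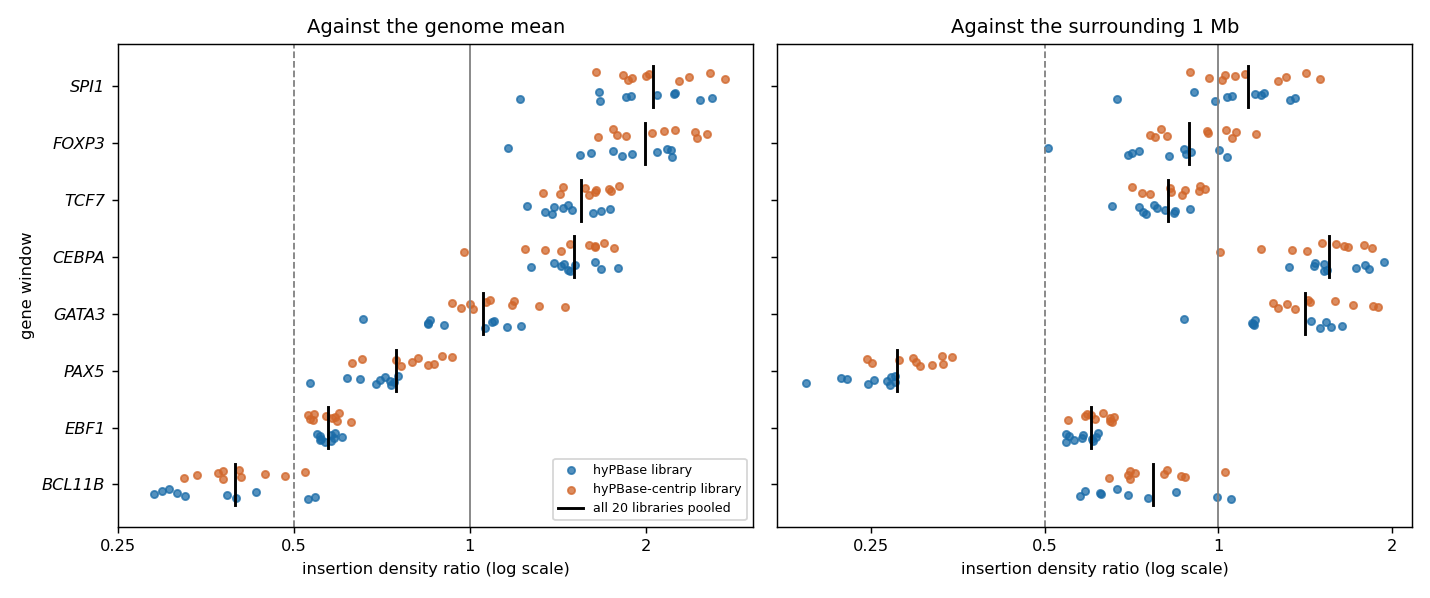
Insertions per TTAA site in each gene's window, as a ratio to the same library's genome mean (left) and to its surrounding 1 Mb (right), on log axes. Each point is 1 library, colored by helper, the black bars are the 20 libraries pooled, the solid line is a ratio of 1 and the dashed line 0.5. BCL11B, EBF1 and PAX5 lay below the genome mean in all 20 libraries, and the points of PAX5 shift most between the panels.

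Against its surroundings, taken as the 500 kb on either side of the window, the picture changed. PAX5 alone was cold (1 of 8, where 15.7% of all windows were). PAX5, EBF1, BCL11B, TCF7 and FOXP3 were lower than their surroundings, 5 of 8 (46.4% of all windows), and CEBPA, GATA3 and SPI1 were denser, 3 of 8 (46.0% of all windows). Thus the gene that was cold against the genome and the gene that was cold against its neighborhood were different genes. The median ratio to the surroundings was 0.853 over the 8 and 0.990 over all windows.

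**Figure D2:**
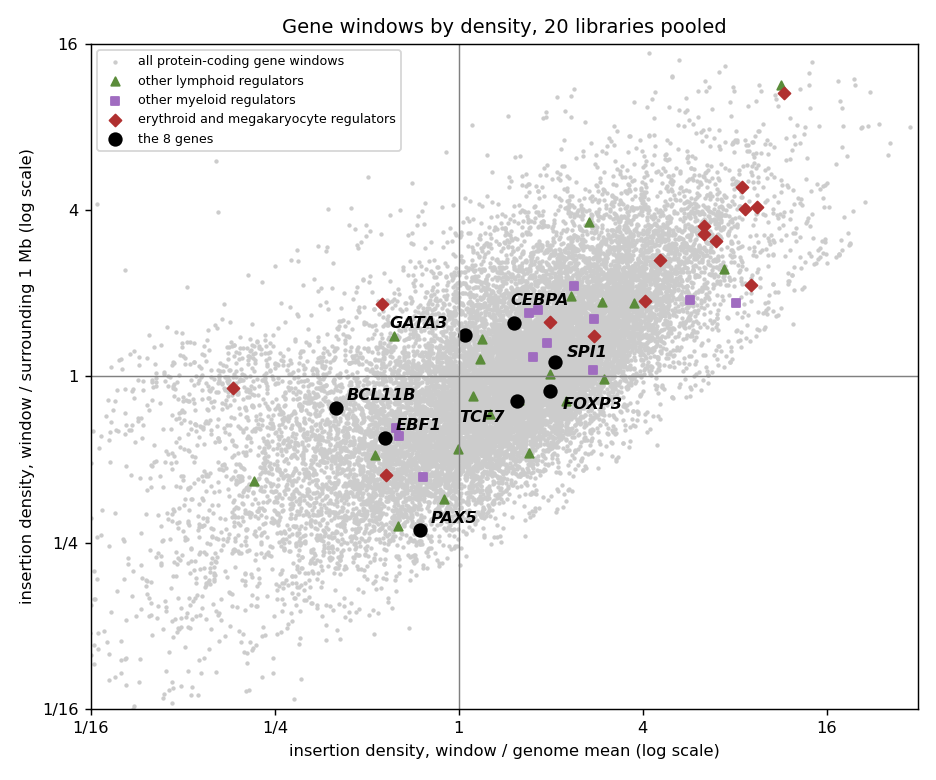
Every protein-coding gene window by its density against the genome mean (horizontal) and against its surrounding 1 Mb (vertical), 20 libraries pooled, on log axes. Gray points are all windows (those beyond the axes are not drawn), colored symbols are 3 lists of blood regulators and black circles the 8 genes. The 8 genes lie within the cloud of all genes, with BCL11B farthest left at 0.397 and PAX5 lowest at 0.277.

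SPI1, which encodes the factor PU.1, lies at chr11:47354860-47378547 on the minus strand and was the densest of the 8. Its window of 130 TTAA sites held 17 to 50 insertions per library, with a median of 39.5. The ratio to the genome mean ran from 1.22 to 2.73 over libraries with a median of 2.02, so all 20 libraries lay above the mean. The pooled ratio was 2.06, a log2 ratio of 1.04 ± 0.28 (SD, n = 20; adjusted p = 5.74e-44, edgeR's quasi-likelihood test with Benjamini-Hochberg adjustment). The same test put it only slightly above its surroundings (log2 ratio 0.17, adjusted p = 0.00361), with 15 of 20 libraries above and 5 below. That call was lost with hyPBase libraries alone, with the gene body alone, with flanks of 50 kb and with barcodes collapsed, where each position and orientation counts once per library.

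The insertions at SPI1 were not spread evenly. The 20 kb upstream of the gene held 3.80 times the genome mean, the body 1.82 times and the downstream 20 kb 0.898 times. The upstream flank was above the mean in all 20 libraries, while the downstream flank, which lies over MYBPC3, the gene of a cardiac myosin-binding protein, was below it in 12. Most of the upstream excess came from few sites, since the single site at position -15431 from the SPI1 start held 150 of the 350 insertions there. Without that site the window's ratio was 1.65, with 1 of 20 libraries below the mean. An upstream enhancer of SPI1 is known in myeloid cells, and whether this site lies in it was not examined. Within 1 kb of the SPI1 start there was only 1 TTAA site, with 1 insertion in the 20 libraries, so the density at the promoter itself could not be measured.

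CEBPA encodes C/EBPα, needed for granulocyte formation, and is a short gene at chr19:33299934-33302534 on the minus strand. Its body holds 0 TTAA sites, so every one of its window's 132 sites lies in a flank, and the data say nothing of the gene itself. The 300-base promoter that RefSeq gives for CEBPA in hg38 also holds 0 TTAA, with a GC content of 80.7%, whereas 46.1% of all promoters in that table hold at least 1 TTAA (letters TTAA, which read the same on both strands). The window held 14 to 42 insertions per library with a median of 27.5. Ratios to the genome mean ran from 0.978 to 1.80 with a median of 1.49, and 19 of 20 libraries were above the mean.

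Pooled, the CEBPA window stood at 1.51 times the genome mean (log2 ratio 0.60 ± 0.20, SD, n = 20; adjusted p = 2.64e-17, edgeR's quasi-likelihood test) and at 1.56 times its surroundings, above them in all 20 libraries. The downstream 20 kb held 2.34 times the genome mean and the upstream 20 kb 1.05 times. The densest 5-kb bin of its window among those with at least 10 sites, chr19:33289934-33294933, held 157 insertions on 16 sites, 3.62 times the genome mean, in sequence without an annotated protein-coding or lncRNA gene. With the median gene window as the reference in place of the genome mean, CEBPA no longer differed (log2 ratio 0.03), and against the nearest 100 kb on either side it no longer differed from its surroundings (0.02).

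PAX5 encodes the factor that commits cells to the B lineage and spans chr9:36833269-37034268 on the minus strand. Its window of 877 sites held 47 to 147 insertions per library with a median of 88.0. The ratio to the genome mean was 0.532 to 0.933 with a median of 0.738, below 1 in all 20 libraries, and 0.748 when pooled (log2 ratio -0.43 ± 0.20, SD, n = 20; adjusted p = 3.46e-30, edgeR's quasi-likelihood test). The deficit was much smaller against the mean of its chromosome (log2 ratio -0.11) and with barcodes collapsed (-0.08), though PAX5 was still called lower. Against the median gene window it was larger (-0.99). Against the surrounding 1 Mb the ratio was 0.193 to 0.346 with a median of 0.273. No library came near its surroundings, and the log2 ratio was -1.87 (adjusted p = 1.97e-123, the same test).

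The surroundings of PAX5 were themselves uneven. The 500 kb upstream of the window held 4.13 times the genome mean and the 500 kb downstream 0.946 times, so the window stood at 0.181 times the upstream side and at 0.791 times the downstream side, below each in all 20 libraries. The densest 10 kb of the upstream side held 6892 insertions, 27.3 times the genome mean, 140 kb from the window within ZCCHC7, the gene of a zinc-finger RNA-processing protein. The call of cold at PAX5 therefore rested on the upstream side. In the PAX5 window, flanks included, 13 of the 40 bins of 5 kb with at least 10 sites were at 0.5 times the genome mean or less, and 30 were below it. The share of such bins over the whole genome is not given here, so this count has no background. Of these 40, the densest was the bin next to the start, chr9:37028269-37033268 in intron 1, at 2.33 times the genome mean, while a bin of 9 sites around the most-hit site of PAX5 reached 3.11 times.

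EBF1, which acts ahead of PAX5 in B-cell specification, is the longest of the 8 genes (chr5:158695920-159099916, minus strand) and the richest in target sites, with 3190 in its window. It held 145 to 356 insertions per library with a median of 258.5. Ratios to the genome mean lay between 0.528 and 0.626 with a median of 0.573, the narrowest range of the 8, and no library reached the mean. The pooled ratio was 0.572 (log2 ratio -0.81 ± 0.07, SD, n = 20; adjusted p = 8.15e-116, edgeR's quasi-likelihood test), just short of the limit for cold. That limit was passed when an insertion needed at least 3 reads (log2 ratio -1.01) and when the median gene window was the reference (-1.37).

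EBF1 lay between 2 sides of unlike mean density. The window was at 0.355 times its upstream 500 kb, lower in all 20 libraries, and at 1.86 times its downstream 500 kb, higher in all 20. The upstream side included a 10-kb bin in RNF145, a ubiquitin ligase gene 90 kb from the window, at 11.1 times the genome mean. Nearer the window it was not as dense: the 10-kb bins centered at -25, -35 and -45 kb from the start held 1.29, 1.06 and 0.796 times. In the gene's window 85 of 88 bins of 5 kb were below the genome mean and 48 at 0.5 times or less, again without a genome-wide share to compare. The densest of the 88 was near the 5′ end (chr5:159090920-159095919, in intron 4), with 430 insertions at 2.88 times the genome mean, and the 5 sites within 1 kb of the start held 41 insertions at 3.02 times. Insertions within 1 kb of the EBF1 start were found in 18 of 20 libraries.

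**Figure D3:**
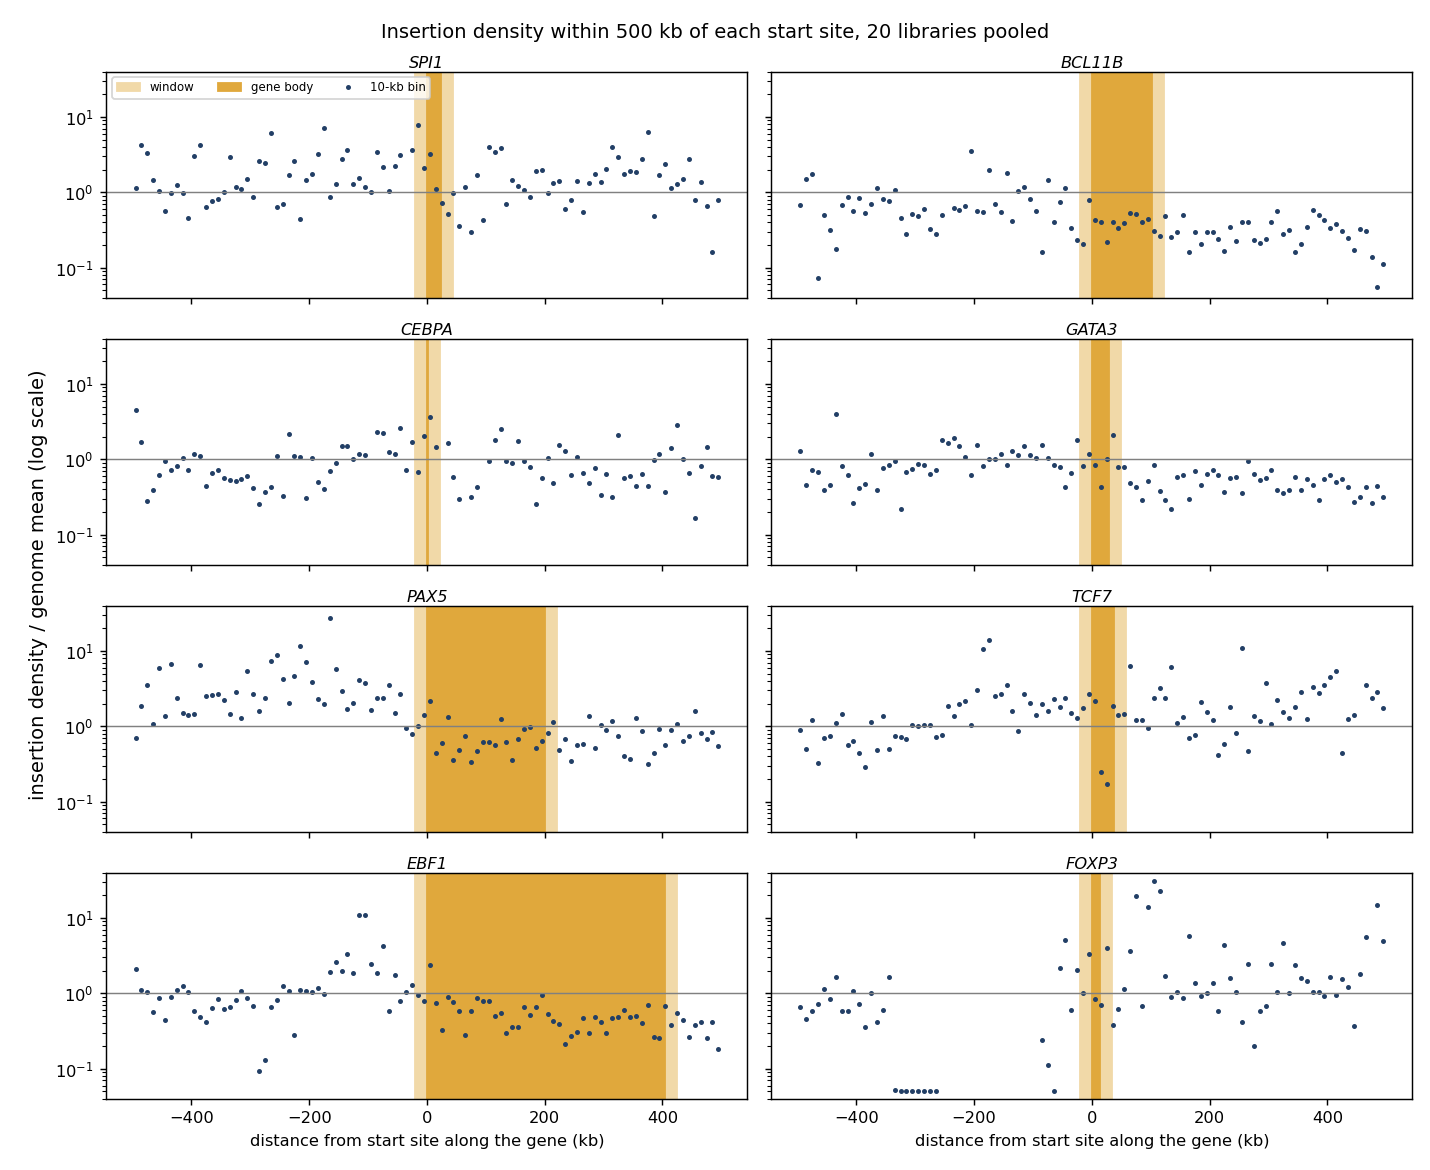
Insertions per TTAA site in 10-kb bins with at least 10 sites, within 500 kb of each gene's start site, as a ratio to the genome mean on a log axis, 20 libraries pooled, with the direction of transcription to the right. Values under 0.05 are drawn at 0.05, and the shading marks the body and window. PAX5 and EBF1 lie beside denser upstream regions (27.3 and 11.1 times the genome mean at their densest), and FOXP3 between a dense downstream region and bins with almost no insertions.

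BCL11B, required for T-cell commitment, lies at chr14:99169287-99272197 on the minus strand. The window of 583 sites held 14 to 52 insertions per library with a median of 30.0, where the genome mean would give 45.8 to 109. Ratios to the genome mean ran from 0.288 to 0.543 with a median of 0.382, all 20 below the mean. The pooled ratio was 0.397 (log2 ratio -1.34 ± 0.28, SD, n = 20; adjusted p = 1.19e-76, edgeR's quasi-likelihood test). With the libraries of a helper taken alone, an exact sign-flip permutation test gave an unadjusted p = 0.00195, two-sided, which is the smallest that 10 libraries allow. The same exact test gave 0.00195 in both helpers for SPI1, PAX5, EBF1, TCF7 and FOXP3, 0.00195 and 0.00391 for CEBPA and 0.525 and 0.0449 for GATA3, in the order hyPBase and hyPBase-centrip.

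Low density ran through most of the BCL11B window. All 24 bins of 5 kb with at least 10 sites were below the genome mean, 17 of them at 0.5 times or less, and the densest reached 0.811. Here too the share of such bins over the genome is not given. The 6 sites within 1 kb of the start were an exception, with 18 insertions at 1.11 times the mean and 8 of 20 libraries below it. The upstream flank held 0.585 times the mean, the body 0.406 times and the downstream flank 0.252 times. Its surroundings were also low, at 0.515 times the genome mean, so the window was only moderately below them (0.770, log2 ratio -0.38, adjusted p = 2.17e-10, edgeR's quasi-likelihood test), in 18 of 20 libraries. Like EBF1 it lay between sides of unlike mean density, at 0.469 times its upstream side and 1.65 times its downstream side, each in all 20 libraries. The upstream excess did not begin at the window. The 10-kb bins centered at -25, -35 and -45 kb from the start held 0.233, 0.333 and 1.15 times the genome mean. The densest, at 3.55 times, lay 180 kb from the window. The call of cold was lost with barcodes collapsed (log2 ratio -0.88) and against the mean of chromosome 14 (-0.91), though BCL11B stayed lower in both. Copy number in K562 was not measured, and its part in a low ratio to the genome mean was not tested.

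GATA3, a factor of T-cell and type 2 helper T-cell development, lies at chr10:8045378-8075198 on the plus strand. Its window held 17 to 67 insertions per library with a median of 49.0. Ratios to the genome mean spread on both sides of 1, from 0.656 to 1.46 with a median of 1.06, with 7 libraries below and 13 above. No difference from the genome mean was detected (log2 ratio 0.07 ± 0.26, SD, n = 20; adjusted p = 0.173, edgeR's quasi-likelihood test). It was denser than its surroundings by 1.41-fold (adjusted p = 1.26e-17, the same test), in 19 of 20 libraries, and the upstream and downstream sides gave ratios of 1.03 and 2.29.

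GATA3 was called denser than the genome mean with barcodes collapsed (log2 ratio 0.30), with at least 2 or 3 reads per insertion (0.14 and 0.24) and in hyPBase-centrip libraries alone (0.15), and lower with flanks of 5 kb or 50 kb and against the median gene window. The GATA3 value was a sum of unlike parts. The body held 0.764 times the genome mean, below it in 19 of 20 libraries, and the downstream 20 kb 1.39 times. With the body alone GATA3 was lower than the genome mean (log2 ratio -0.39, adjusted p = 1.27e-05, edgeR's quasi-likelihood test). Among 5-kb bins with at least 10 sites the densest, chr10:8080378-8085377, 37.5 kb downstream of the start, held 229 insertions at 3.67 times the genome mean, 122 of them at the single site shown above. Without that site the window was at 0.919 times the mean, below it in 15 libraries. Near the start the density was higher again, with 49 insertions on 6 sites within 1 kb, 3.01 times the genome mean.

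TCF7 encodes TCF-1, a factor of T-cell progenitors, and lies at chr5:134114681-134151865 on the plus strand. The window held 34 to 99 insertions per library with a median of 62.0. Ratios to the genome mean were 1.25 to 1.80 with a median of 1.54, above the mean in all 20 libraries (pooled 1.55, log2 ratio 0.63 ± 0.15, SD, n = 20; adjusted p = 8.56e-35, edgeR's quasi-likelihood test). Against the surroundings it was 0.654 to 0.949 with a median of 0.816, below them in all 20 (log2 ratio -0.30, adjusted p = 4.65e-12, the same test). This lower value was not called with barcodes collapsed or with flanks of 5 kb, and with flanks of 50 kb the window was denser than its surroundings (0.15). With the median gene window as the reference in place of the genome mean, TCF7 was not called denser (log2 ratio 0.07).

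Density at TCF7 was high at both ends and low between them. The 10-kb bin at the start held 2.19 times the genome mean, the next 2 along the gene 0.246 and 0.172 times, and the bin over its 3′ end 1.86 times. Of the window's 294 sites, 176 lie in SKP1, the gene of an SCF ubiquitin ligase subunit that overlaps the TCF7 3′ end, and these held 755 of the 1237 insertions at 1.58 times the genome mean. The 62 sites in TCF7 and in no other protein-coding gene held 0.904 times the mean, and 12 of 20 libraries were below it there. The densest 5-kb bin with at least 10 sites lay just upstream of the start (chr5:134109681-134114680) at 4.74 times the genome mean, and insertions of windows that overlap cannot be assigned to one gene.

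A single site within 1 kb of the TCF7 start, at position -113 from it and at chr5:134114568-134114571, held 53 insertions from 19 of 20 libraries. It is shown because all 53 had the same orientation, opposite to TCF7, which for a single site gives 0% on the gene's own strand (95% Wilson confidence interval up to 6.76%).
TCF7 start: aagagcgagccctTTAAggctatgccgagt

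FOXP3, the regulatory T-cell factor, is a short gene at chrX:49250438-49264800 on the minus strand. Its window held 15 to 61 insertions per library with a median of 46.0. Ratios to the genome mean were 1.17 to 2.55 with a median of 1.98, all 20 above the mean, and 1.99 pooled (log2 ratio 0.99 ± 0.27, SD, n = 20; adjusted p = 2.63e-47, edgeR's quasi-likelihood test). Those insertions were mostly in other genes. Of 164 sites, 142 lie in another protein-coding gene, and the window took 284 insertions from CCDC22, at 3.08 times the genome mean, and 364 from PPP1R3F, at 2.35 times. CCDC22 encodes a protein of endosomal sorting and PPP1R3F a regulatory subunit of protein phosphatase 1. An unnamed gene annotated as protein-coding overlaps the 5′ end of FOXP3 and held 93 insertions, and CACNA1F, a calcium channel gene of the retina, held 14 on 13 sites.

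The body of FOXP3 had 35 sites and 80 insertions, 0.843 times the genome mean, with 12 of 20 libraries below the mean. Only 13 of these sites, with 32 insertions at 0.907 times the mean, lie in no other protein-coding gene. With the body alone the log2 ratio was -0.24, which did not pass (adjusted p = 0.14, edgeR's quasi-likelihood test), and against the surroundings it was -1.41, which would be cold (adjusted p = 9.19e-21, the same test). With the standard window it was -0.18 (adjusted p = 0.000352), with 14 libraries below the surroundings and 6 above, and it was not called with hyPBase-centrip libraries alone or with barcodes collapsed and turned to 0.22 with flanks of 50 kb. The surroundings of FOXP3 were uneven. All bins of 10 kb centered from -255 to -95 kb of its start held 0 TTAA sites, so that stretch adds nothing to the reference. The downstream 500 kb held 3.97 times the genome mean, and 11 of 83 bins of 10 kb, with 14.8% of the sites counted there, held less than 0.1 times the mean. No other gene of the 8 had more than 6 such bins. Whether reads could be placed uniquely in those bins was not tested.

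**Figure D4:**
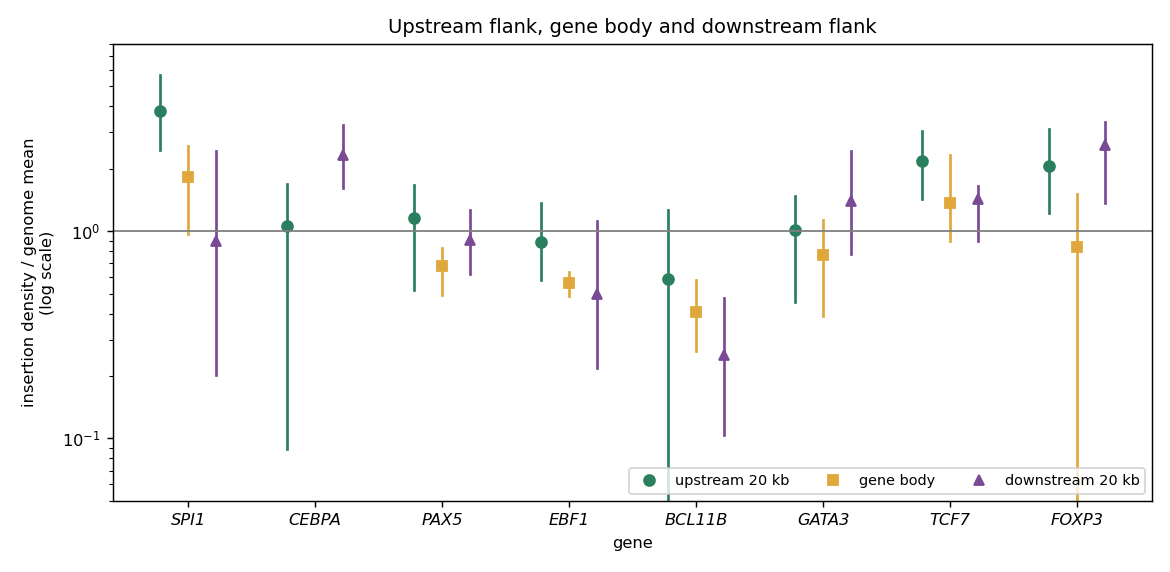
Insertions per TTAA site in the upstream 20 kb, the gene body and the downstream 20 kb of each gene, as a ratio to the genome mean on a log axis. Symbols are the 20 libraries pooled and lines run from the lowest to the highest library (a line that reaches the lower edge includes a library with no insertion), and CEBPA has no symbol for its body, which holds 0 TTAA sites. SPI1 falls from 3.80 upstream to 0.898 downstream, whereas the body of FOXP3 at 0.843 lies below both of its flanks.

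The second question was in which direction insertions lay within the genes. Orientation is the strand recorded for each insertion, compared with the strand of the gene, and the sources used here do not say which end of the transposon that strand refers to. In the gene bodies of 16111 genes with at least 50 insertions, the median share on the gene's own strand was 33.3%, and 76.9% of these genes had significantly fewer insertions on their own strand. Of the 7 regulator genes that could be tested, SPI1, GATA3, EBF1, FOXP3 and PAX5, 5 of 7, were called in that direction, BCL11B and TCF7 were not called, and CEBPA could not be tested. A count of 5 of 7 is near the background of 76.9%.

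The share on the gene's own strand was 24.9% of 281 insertions at SPI1 (95% Wilson confidence interval 20.2% to 30.3%), with 19 of 20 libraries below an even split and 1 at it. At GATA3 it was 29.8% of 255 (24.5% to 35.7%), below it in 18 libraries. At EBF1 it was 34.2% of 4531 (32.8% to 35.6%), below it in all 20. SPI1 and GATA3 were below the share of the median gene and EBF1 just above it, with every library of EBF1 between 25.7% and 39.4%. FOXP3 had 36.3% of only 80 insertions (26.6% to 47.2%; adjusted p = 0.0273, edgeR's quasi-likelihood test) and lost the call with barcodes collapsed.

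PAX5, BCL11B and TCF7 were nearer to an even split. PAX5 had 44.8% of 1305 insertions on its own strand (42.1% to 47.5%; adjusted p = 0.00035, edgeR's quasi-likelihood test), below an even split in 16 libraries, and was not called in hyPBase libraries alone (adjusted p = 0.0625). BCL11B had 46.0% of 424 (41.3% to 50.7%; adjusted p = 0.124, the same test) and TCF7 46.2% of 301 (40.6% to 51.8%; adjusted p = 0.223). The TCF7 value mixes in SKP1, which overlaps its 3′ end and runs the opposite way. Only 62 of the 81 body sites, with 152 of the 301 insertions, lie in no other protein-coding gene. The share on those sites alone was not tested. In hyPBase libraries alone BCL11B and TCF7 were called for the opposite strand (log2 ratio -0.58 and -0.70), and in hyPBase-centrip libraries alone their values lay on the other side of an even split (0.06 and 0.16). The difference between helpers in orientation was not tested.

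Downstream flanks of TCF7, FOXP3 and GATA3 had other shares than the gene bodies. The downstream 20 kb of TCF7 had 87.3% of 606 insertions on the strand of TCF7. SKP1, which lies there, runs the opposite way and had 18.0% of 755 on its own strand within the window. An unnamed gene annotated as protein-coding overlaps SKP1 on the same strand and had 10.1% of 365 on that strand. The downstream 20 kb of FOXP3 had 72.3% of 397 on the strand of FOXP3, and CCDC22, which runs the opposite way, had 32.4% of 284 on its own strand. GATA3 showed a like share downstream, 73.3% of 434, with no annotated protein-coding gene in its window besides GATA3, and 71.5% when the most-hit site was left out. With the whole window in place of the body, TCF7, FOXP3 and GATA3 therefore had more insertions on their own strand (log2 ratios 1.16, 0.77 and 0.34). Near the starts the share was low at EBF1, with 2 of 41 insertions (4.88%; 1.35% to 16.1%), and at BCL11B, with 0 of 18 (an upper limit of 17.6%). PAX5 had 8 of 9 insertions on its own strand there, too few to place.

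**Figure D5:**
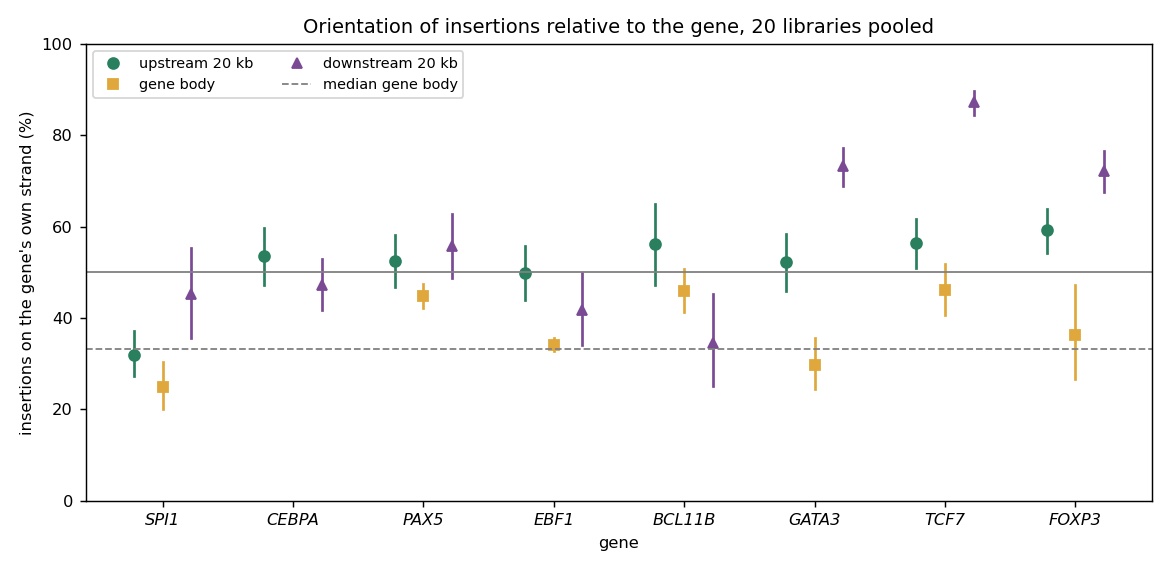
Percent of insertions recorded on the gene's own strand in the upstream 20 kb, the gene body and the downstream 20 kb, 20 libraries pooled. Lines are 95% Wilson confidence intervals for counting error alone, the solid line is 50% and the dashed line the median gene body at 33.3%. Bodies of SPI1 and GATA3 lie below the dashed line, and the downstream flanks of TCF7, FOXP3 and GATA3 lie far above the solid line.

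The third comparison, between helpers, gave no call for any of the 8 genes. With edgeR's quasi-likelihood test on all windows, 2.75% of 18821 windows differed between hyPBase-centrip and hyPBase, and of the 8 genes 0 did. At an unadjusted p below 0.05 there was 1, PAX5, in both edgeR and DESeq2, and DESeq2 also called 0 after adjustment. PAX5 had a ratio to the genome mean of 0.687 ± 0.0692 (SD, n = 10) with hyPBase, from 0.532 to 0.755, and 0.795 ± 0.0996 (SD, n = 10) with hyPBase-centrip, from 0.629 to 0.933. The ranges overlapped, and the log2 ratio of hyPBase-centrip over hyPBase was 0.22 (adjusted p = 0.052). It passed without hyPBase-centrip replicate 3, the library with the largest share of insertions seen in a single read, 52.7% (adjusted p = 0.0252), and with library size as the only scaling (adjusted p = 0.0398). For the other 7 genes the log2 ratio lay between -0.02 and 0.15.

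Other regulators of blood lineages, from lists chosen with earlier results of these data known, reached both higher and lower values than the 8 genes. Of 21 other lymphoid regulators, 5 were lower than the genome mean and 1 of these was cold. A further 15 were denser and 1 was not called, with a median ratio of 1.57 over the list. The lowest were THEMIS, a T-cell signaling gene, at 0.214 and POU2AF1, a B-cell coactivator gene, at 0.532, and the highest IKZF1, which encodes Ikaros, at 11.4 and ID3, an inhibitor of E proteins, at 7.37. Of 12 other myeloid regulators, 0 were cold in edgeR's quasi-likelihood test, 3 were lower and 9 denser, with a median of 1.88. HLX at 0.625 was lowest, and CEBPB at 8.11 and CEBPE at 5.74, relatives of CEBPA, were highest. Over all windows 13.7% were cold, 29.5% lower and 65.3% denser.

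Of 15 genes listed as erythroid and megakaryocyte regulators, 12 were denser than the genome mean, 3 lower and 1 of these, IKZF2, cold, with a median of 6.34. Over all windows 65.3% were denser. TAL1 at 11.6 and LMO2 at 9.50, partners in the erythroid complex with GATA1, were highest. IKZF2 at 0.182 and FLI1, a megakaryocyte factor, at 0.561 were lowest. IKZF2 is an Ikaros relative, and whether it acts in this lineage was not examined. The densest of the 8 lymphoid and myeloid genes, SPI1 at 2.06, was below the median of this list, and 11 of the 15 were above SPI1. Also above SPI1 were 8 of the 21 other lymphoid regulators, 5 of the 12 other myeloid regulators and 3 of the 8 markers of other lineages. SPI1 stood at percentile 66.7 of all protein-coding windows, so the counts outside the erythroid and megakaryocyte list were near the background. Of 8 markers of other blood lineages, 7 were denser than the genome mean, against 65.3% of all windows. Among these were CD8A, a T-cell gene, at 1.09, and MPO at 2.88 and CD14 at 3.48, both myeloid, which were the highest.

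By the distance between genes in both log2 ratios over the 20 libraries pooled, the most alike of 48 listed regulators to TCF7 was BACH2 (1.57 and 0.821 times the genome mean and the surroundings; distance 0.018). SPIB, which like PAX5 is used in B cells, was nearest to PAX5, at 0.631 and 0.288 (distance 0.25). ZBTB16 was nearest to both SPI1 and FOXP3, POU2F2 to GATA3 and KLF4 to CEBPA. BCL11B had no near neighbor, with HLX at a distance of 0.70.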

How the data were processed

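Calling cards libraries from K562 cells were analysed, 10 made with hyPBase and 10 with hyPBase-centrip, grouped by the labels. For each library the authors deposited 1 line per insertion that holds the hg38 position, a read count, the orientation and a barcode. The counts are not normalized. The submitters' processing notes name Trimmomatic, BWA and SAMtools, with versions and settings not given in the sources used here. Every interval was 4 bp wide, and each line was counted as 1 insertion with at least 1 read.

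TTAA sites were located in hg38 and protein-coding genes taken from GENCODE version 44. Insertions in each gene's window (body and 20 kb on either side) were fitted with edgeR 4.0.16 in R 4.3.3 by the quasi-likelihood test, with helper as the group and an offset of TTAA sites times the library's density in the genome or in the 500 kb on either side. P-values were Benjamini-Hochberg adjusted over all genes tested. Orientation was fitted likewise with the library as a block, for genes with at least 50 insertions in the body, and helpers were compared after TMM normalization with edgeR's default filter on low counts. The fits were tested on simulated data. DESeq2 1.42.0 and limma 3.58.1 (pseudocount 0.5) were alternatives. Other steps used Python 3.11.15.

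The 8 genes and the lists were chosen with earlier results of these data known. Of each list the 2 highest and 2 lowest genes by the log2 ratio to the genome mean are named, with the genes overlapping a window, its densest 5-kb bin and its most-hit site. Some genes that this rule names are not reported here. The site at the TCF7 start, the sides of the surroundings and the genes of their densest bins were chosen after their values were seen. Windows of neighboring genes share insertions. The labels do not say that each library is a separate culture, so p-values measure the spread between these libraries. Depth was 1509672 to 3596762 insertions per library, and Wilson intervals cover counting error only. Promoter letters came from RefSeq (hg38), where 7 of the 8 genes matched.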

Additional observations from a re-analysis of the deposited data

Results flagged for a closer look

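In 2 libraries outside the comparisons, whose title and description name different helpers, the 8 windows held 557 and 445 insertions. Their ratios to their own genome mean were 0.429 and 0.516 at BCL11B, 0.542 and 0.588 at EBF1, 0.902 and 0.792 at PAX5, 0.906 and 1.04 at GATA3, 1.41 and 1.73 at CEBPA, 2.12 and 1.69 at TCF7, 2.27 and 2.47 at FOXP3, and 1.93 and 2.07 at SPI1. These were flagged because the libraries enter no other result. In none of the 44 groups of 10 values checked within a helper did 1 library lie far from the rest by Dixon's test.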

How the results depend on the processing

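BCL11B was the only gene cold against the genome mean, as 1 of 8, under all alternatives run except 4. The count was 0 with barcodes collapsed and with the chromosome mean as reference, and 2 with at least 3 reads per insertion and with the median gene window as reference, where EBF1 joined it. The count of genes cold against the surroundings was 1 (PAX5), and 2 with the gene body alone or flanks of 5 kb, where FOXP3 joined, and 3 with the nearest 100 kb as reference, where EBF1 (log2 ratio -1.69) and FOXP3 (-1.58) did. The count lower than the surroundings fell from 5 to 3 with barcodes collapsed and with flanks of 50 kb. The count lower than the genome mean rose from 3 to 4, with GATA3, for the body alone, flanks of 5 kb or 50 kb and the median gene window. The genes with fewer insertions on their own strand were 5, and 3 with the whole window, 4 with at least 2 reads, barcodes collapsed or hyPBase-centrip alone, and 5 in hyPBase alone, where BCL11B and TCF7 were called and PAX5 was not. FOXP3 had too few insertions to be tested in either helper alone or with at least 2 reads.

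The signs that turned were as follows. Against the genome mean, GATA3 turned to -0.39 with the body alone, -0.22 with flanks of 5 kb, -0.14 with flanks of 50 kb, -0.0788 against the chromosome mean, -0.50 against the median gene window, -0.0125 in hyPBase alone and -0.12 without its most-hit site, and FOXP3 to -0.24 with the body alone and -0.21 with flanks of 5 kb. Against the surroundings, FOXP3 turned to 0.12 with barcodes collapsed, 0.22 with flanks of 50 kb and 1.42 against its upstream side, TCF7 to 0.0013 and 0.15 with flanks of 5 and 50 kb, GATA3 to -0.0224 with the body alone, EBF1 to 0.90 and BCL11B to 0.73 against their downstream sides. In orientation, GATA3, TCF7 and FOXP3 turned to 0.34, 1.16 and 0.77 in the whole window, TCF7 to 0.0135 with at least 2 reads per insertion, and BCL11B and TCF7 to 0.0631 and 0.16 in hyPBase-centrip alone. Between helpers, EBF1 turned to 1.2e-05 with library size alone, CEBPA to 0.0458 with at least 2 reads and 0.00064 without hyPBase-centrip replicate 3, and SPI1 to -0.00635 with at least 2 reads. The single sides and the omission of a site were chosen after seeing the data. The cause of these changes was not tested. Of 111 values each against the genome mean and the surroundings, 97 and 99 kept both sign and side of the threshold.

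Of the 8 genes, 0 differed between helpers, and 1 (PAX5) without hyPBase-centrip replicate 3 or with library size as the only scaling. Over all windows 518 differed, 313 with at least 2 reads, 308 with DESeq2 and 759 with log library size as a term. With a replicate block 492 windows and 0 of the 8 genes differed, and it changed none of the counts of genes cold or lower against either reference. Same-numbered libraries did not deviate together (correlations of -0.047 to 0.045 over 10 pairs, 0 libraries closest to their own number), so the numbers do not pair them. Sites outside repeats were not run as an alternative, because repeats are not marked in the reference used, and with the exception of hyPBase-centrip replicate 3 single libraries were not left out. Where the genome mean gives 10.2 insertions in the shallowest library, as at SPI1, depth limits what a single library shows.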
